A study of Homo sapiens with 6 samples.

Results

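The 10 genes described here are 3 FOXO transcription factors (FOXO1, FOXO3 and FOXO4) and 7 genes known as their targets or partners: DEPP1, TXNIP, ARRDC4, PIK3IP1, IRS2, SESN3 and PDK4. They were matched by symbol to the Ensembl genes of the deposited table, which lists 62703 genes, and all 10 were among the 18544 with enough counts to be tested. The list was proposed with results of this same comparison known. The differences of these 10 genes between the groups are therefore given as a description, with no test.

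The cells were A549, a human line derived from a lung adenocarcinoma, and RNA was sequenced after growth in a hydrogel named S-AlgLung (3 libraries) or in one named AlgLung (3 libraries). The meaning of the S is not spelled out in the labels; the title names matrix sulfation, cancer stemness and invasiveness as its subjects. All cells were kept in DMEM/F12 with fetal bovine serum and antibiotics, and no genetic change is labelled. It is not labelled whether each replicate was a culture of its own, so the p-values of other genes reflect just the spread among these libraries, and that spread may be technical.

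FOXO proteins are forkhead transcription factors. When insulin or growth factors activate PI3K and AKT, AKT phosphorylates FOXO proteins, which then leave the nucleus. When the pathway is quiet they enter the nucleus and switch on genes for cell cycle arrest, stress resistance, autophagy and the use of fuels other than glucose. Because this control acts on the protein, the messenger level of a FOXO factor is a separate quantity from its activity, and only messenger levels were measured. TXNIP and its relative ARRDC4 also have a second known regulator, the glucose-sensing factor MondoA with its partner MLX.

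The depth was 22978408 to 26495444 counted reads per library. A549 epithelial markers (11 of 11 tested) had summed levels of 2.05e+04 to 3.86e+04 CPM in S-AlgLung and 3.01e+04 to 4.05e+04 CPM in AlgLung, where CPM is the TMM-scaled read count per 1000000 reads. EdgeR called 0 of the 11, with 1 at an unadjusted p under 0.05 and 0 called by DESeq2. CDKN2A, a gene deleted in A549 cells, had 1 read in all libraries together. Summed fibroblast markers stood at 7.14 to 9.24 CPM in S-AlgLung and 7.62 to 7.93 CPM in AlgLung, with DCN at 1 read in all, and endothelial markers at 3.04 to 3.77 CPM in S-AlgLung and 2.34 to 3.68 CPM in AlgLung, with KDR at 1 read in all. Summed leukocyte markers stood at 44.3 to 71.4 CPM in S-AlgLung and 30.9 to 38.1 CPM in AlgLung, nearly all of it CD14, with 5 reads of PTPRC and 2 of CD3E in all. Of 2 leukocyte markers tested, edgeR called 1 higher, CD14 (log2 fold change 0.85, adjusted p = 0.0225), and both were at an unadjusted p under 0.05 with every S-AlgLung library above every AlgLung library. S-AlgLung replicate 3 stood apart on the second principal component, which held 31.9% of the variance (41.6, against -21.4 and -29.2 in the other S-AlgLung libraries). The nuclear RNAs MALAT1 and NEAT1 took 0.0264% of its counts and no more than 0.00736% in any other library. MALAT1 (2597 reads in all) has 7205 exon bases in common with TALAM1 (2534 reads), an antisense gene. Reads could be shared between that pair, so the MALAT1 part of the nuclear RNA share is uncertain. NEAT1, the larger part with 11439 reads in all, shares exon bases with other genes on its strand. Those had up to 0.1315 times its counts, so reads could be shared there too. Values without S-AlgLung replicate 3 are given beside the results whose call or size it moves most.

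The sequence just before the start of a gene is where FOXO factors and MondoA are known to bind, so the 250 bases before the start sites of the 3 genes with the greatest excess in S-AlgLung are shown first. They were taken from RefSeq promoter windows of build GRCh38.p14 and are written 5′ to 3′ on the strand of the gene. The 250 bases before DEPP1 lie at chr10:44978810-44979059 (minus strand), those before TXNIP at chr1:145996580-145996829 (minus strand) and those before ARRDC4 at chr15:97960453-97960702 (plus strand). Capitals mark GTAAACA, the core of a FOXO element, in DEPP1 and TXNIP, CACGTG, an E-box, in ARRDC4, and, as the longer capital run of TXNIP, a pair of CACGNG half-sites with 5 bases between them, the layout of a carbohydrate response element.
DEPP1: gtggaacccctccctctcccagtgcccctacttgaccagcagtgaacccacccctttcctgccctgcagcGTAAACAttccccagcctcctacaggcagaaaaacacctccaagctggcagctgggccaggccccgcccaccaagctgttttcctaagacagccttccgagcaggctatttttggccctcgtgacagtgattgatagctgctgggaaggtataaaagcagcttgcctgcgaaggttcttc
TXNIP: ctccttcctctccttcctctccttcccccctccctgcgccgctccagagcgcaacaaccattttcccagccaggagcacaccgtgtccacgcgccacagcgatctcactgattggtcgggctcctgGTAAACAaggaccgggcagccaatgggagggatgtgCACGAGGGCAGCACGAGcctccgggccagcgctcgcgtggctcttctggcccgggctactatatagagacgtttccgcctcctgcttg
ARRDC4: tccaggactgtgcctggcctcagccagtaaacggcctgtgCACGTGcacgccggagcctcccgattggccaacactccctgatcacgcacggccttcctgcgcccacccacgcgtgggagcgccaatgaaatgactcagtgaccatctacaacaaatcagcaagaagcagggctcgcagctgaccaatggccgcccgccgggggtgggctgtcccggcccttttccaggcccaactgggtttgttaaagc
GTAAACA stood at positions -180 to -174 from the start site in DEPP1 and at -124 to -118 in TXNIP, both on the strand of the gene. The paired half-sites of TXNIP stood at -88 to -72, and the E-box of ARRDC4 at -210 to -205. No motif overlapped another in these windows.

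Both strands of all 300-base windows (250 bases before the start and 50 after) were searched. GTAAACA was in the window nearest the gene start for 3 of the 10 genes (DEPP1, TXNIP and FOXO4, in FOXO4 at +24 to +30) and in 3.42% of 35116 RefSeq windows. For FOXO4, IRS2, PDK4, FOXO1 and FOXO3, the bases just after that start were not found in the reference transcripts searched. Positions in those windows, the FOXO4 match included, are therefore less certain. CACGTG was in 1 of the 10, ARRDC4, and in 7.26% of windows. The paired half-sites, a search added after the data were seen, were in 1 of the 10, TXNIP, and in 20 of the 35116 windows (0.057%). A second start site of PIK3IP1 also had GTAAACA, on the opposite strand, at +17 to +23. These matches describe the letters of the windows and are neither shown binding sites nor causes.

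DEPP1, TXNIP and ARRDC4 had higher levels in S-AlgLung, PDK4 had a lower level, and the other 6 genes did not pass the threshold of the genome-wide fit. Fitted differences ran from 9.73-fold higher for DEPP1 to 0.488-fold for PDK4. Counted by edgeR's call (adjusted p under 0.05 over all genes), 3 of the 10 were higher, where 3.15% of all tested genes were called higher, and 1 was lower, where 1.99% were called lower. Every S-AlgLung library was above every AlgLung library for 6 of the 10, against 10.4% of all tested genes, and below for PDK4, against 8.05%. Since the genes were chosen on this contrast, nothing is read from these counts. The median log2 fold change was 0.32 over the 10 and 0.03 over all tested genes.

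**Figure D1:**
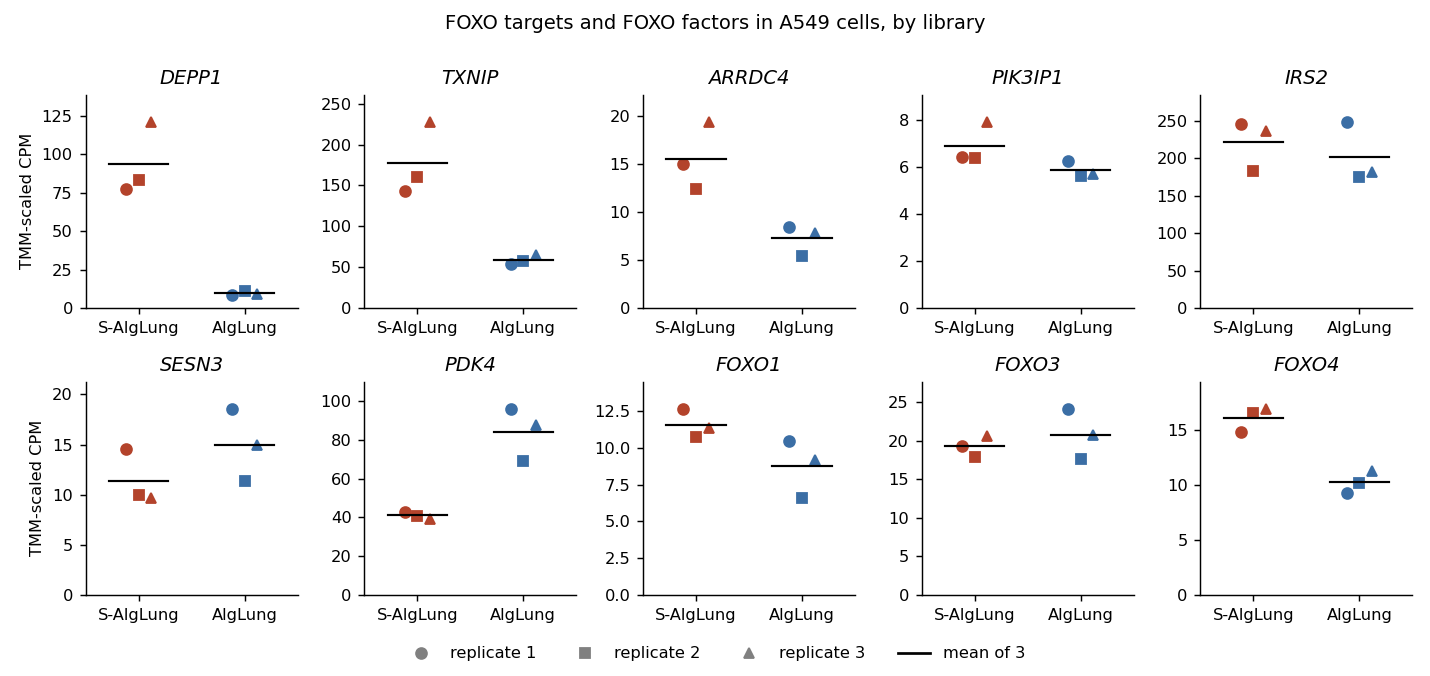
TMM-scaled CPM (linear axes from 0) of the 10 genes in each library, with S-AlgLung (red) left of AlgLung (blue), a marker shape per replicate and a line at the mean of 3. DEPP1 sits at 77.7 to 120.8 CPM in S-AlgLung and 8.59 to 11.2 CPM in AlgLung, and PDK4 shows the opposite order.

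DEPP1 encodes a small protein induced by FOXO factors and by progesterone in decidual cells, and is linked to the control of autophagy and peroxisomes. The gene (ENSG00000165507) lies at chr10:44970981-44978809 on the minus strand of GRCh38. It had 77.7, 83.0 and 120.8 CPM in S-AlgLung replicates 1, 2 and 3, against 8.59, 11.2 and 9.11 CPM in AlgLung replicates 1, 2 and 3. The lowest S-AlgLung library was thus above the highest AlgLung library, and replicate 3 was the highest of its group. Means were 93.8 ± 23.5 CPM in S-AlgLung and 9.64 ± 1.41 CPM in AlgLung (SD, n = 3 each), a log2 fold change of 3.28 (SE 0.25), or 3.03 without S-AlgLung replicate 3. In read counts this was 1713, 1966 and 3400 reads in S-AlgLung, against 224, 250 and 220 in AlgLung. By level per kilobase of exon DEPP1 stood at the 90.1 percentile of tested genes in S-AlgLung and at the 51.8 percentile in AlgLung.

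RASSF4, a member of the RAS association domain family, lies on the other strand and shares 695 exon bases with DEPP1, or 23.3% of its exon length. RASSF4 had 13.2% of the counts of DEPP1. It rose too, with 7.21, 8.07 and 11.9 CPM in S-AlgLung and 4.52, 4.95 and 4.59 CPM in AlgLung (log2 fold change 0.95, SE 0.25, edgeR adjusted p = 0.0191). RASSF4 missed the threshold with total-count scaling (adjusted p = 0.132), without S-AlgLung replicate 3 (0.67, adjusted p = 0.0650) and without any 1 of the AlgLung replicates (adjusted p of 0.0774 to 0.134). The sources used here do not state whether counting used strand, so reads from the shared bases cannot be assigned to either gene.

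TXNIP binds and inhibits the reduced form of thioredoxin, and as an alpha-arrestin promotes removal of glucose transporters from the cell surface. The gene (ENSG00000265972) lies at chr1:145992435-145996579 on the minus strand. It had 143.5, 160.7 and 227.1 CPM in S-AlgLung, against 53.6, 57.6 and 64.9 CPM in AlgLung, in the order of the replicates. The groups did not overlap, and S-AlgLung replicate 3 was again the highest library. Means were 177.1 ± 44.1 CPM in S-AlgLung and 58.7 ± 5.74 CPM in AlgLung (SD, n = 3 each), a 3.02-fold difference (log2 1.59, SE 0.25), or 1.34 on the log2 scale without S-AlgLung replicate 3.

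ARRDC4 is the alpha-arrestin closest to TXNIP and likewise restrains glucose uptake. The gene (ENSG00000140450) lies at chr15:97960703-97973833 on the plus strand. It had 15.0, 12.4 and 19.3 CPM in S-AlgLung, against 8.47, 5.44 and 7.86 CPM in AlgLung. The groups did not overlap, but the gap between the nearest libraries was narrower than for DEPP1 or TXNIP. The log2 fold change was 1.10 (SE 0.24), or 2.14-fold, and 0.88 without S-AlgLung replicate 3. It missed the threshold with scaling by total counts only (1.01) and without AlgLung replicate 2 (0.93), and passed in the other 10 of 12 alternatives.

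PDK4, a mitochondrial kinase that switches off pyruvate dehydrogenase and is induced by FOXO factors in fasting muscle and liver, went the other way. The gene (ENSG00000004799) lies at chr7:95583499-95596516 on the minus strand. It had 43.0, 40.6 and 39.3 CPM in S-AlgLung, against 95.6, 69.1 and 87.3 CPM in AlgLung. All S-AlgLung libraries were close together and below every AlgLung library. Means were 41.0 ± 1.87 CPM in S-AlgLung and 84.0 ± 13.5 CPM in AlgLung (SD, n = 3 each), a log2 fold change of -1.03 (SE 0.22). It kept this sign and its side of the threshold in all 12 alternatives, with log2 fold changes of -1.16 to -0.98.

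The remaining targets differed little. IRS2, an adaptor of the insulin receptor, had 245.3, 182.8 and 236.5 CPM in S-AlgLung and 248.1, 175.4 and 181.9 CPM in AlgLung (log2 fold change 0.13, SE 0.25). Its groups overlapped almost completely, and replicate 2 was the lowest library in both. SESN3, a sestrin that restrains mTORC1, had 14.6, 9.97 and 9.70 CPM in S-AlgLung and 18.5, 11.3 and 14.9 CPM in AlgLung (log2 fold change -0.39, SE 0.24), again with overlap. PIK3IP1, a membrane protein that binds and inhibits PI3K, had 6.44, 6.38 and 7.89 CPM in S-AlgLung and 6.25, 5.62 and 5.71 CPM in AlgLung (log2 fold change 0.24, SE 0.24). Its lowest S-AlgLung library was just above its highest AlgLung library. The genes lie at chr13:109752695-109786583 (IRS2), chr11:95165513-95232541 (SESN3) and chr22:31281594-31292534 (PIK3IP1), all on the minus strand.

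Of the FOXO factors, FOXO4 showed the largest difference. FOXO4 (chrX:71095851-71103532, plus strand) had 14.8, 16.5 and 16.8 CPM in S-AlgLung, against 9.24, 10.2 and 11.3 CPM in AlgLung (log2 fold change 0.65, SE 0.22). The groups did not overlap, yet the gene was not called by edgeR over all genes. FOXO1 (chr13:40555667-40666641, minus strand) had 12.6, 10.7 and 11.4 CPM in S-AlgLung, against 10.5, 6.61 and 9.15 CPM in AlgLung (log2 fold change 0.40, SE 0.23), with the nearest libraries almost level. A gene without a symbol, ENSG00000288542, shares 1352 exon bases with FOXO1 on the same strand and had 30.7% of its counts, so the FOXO1 values are uncertain. FOXO3 (chr6:108559835-108684774, plus strand) had 19.3, 17.9 and 20.6 CPM in S-AlgLung, against 24.0, 17.6 and 20.7 CPM in AlgLung (log2 fold change -0.11, SE 0.21), and its groups overlapped.

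**Figure D2:**
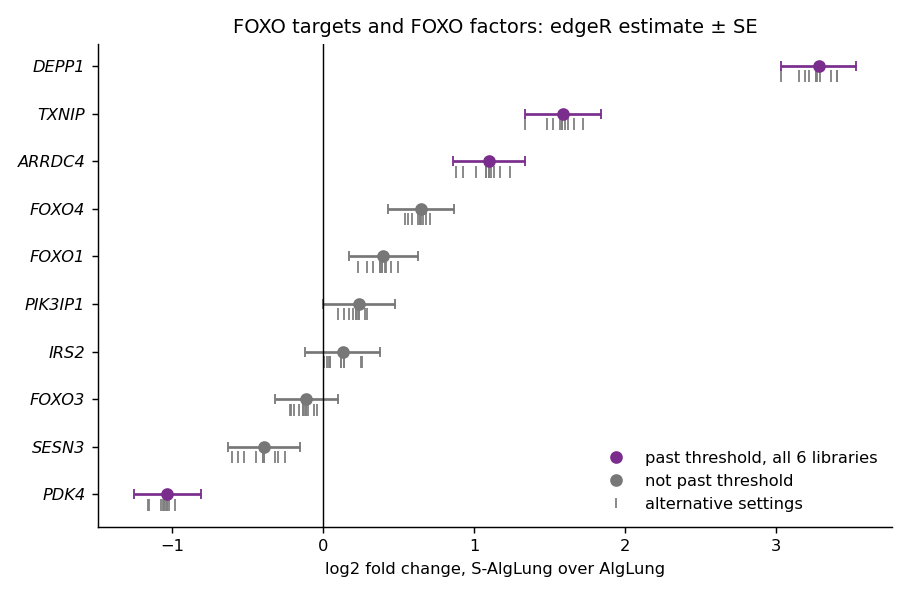
Fitted log2 fold change (S-AlgLung over AlgLung, all 6 libraries) of the 10 genes, with bars of 1 SE and grey ticks for the alternative settings. Purple marks DEPP1, TXNIP, ARRDC4 and PDK4, past the threshold over all genes, and no gene's ticks cross 0.

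Within S-AlgLung, 6 of them were highest in replicate 3, 4 in replicate 1 and 0 in replicate 2. DEPP1, TXNIP and ARRDC4 were 0.39, 0.39 and 0.33 above their group mean on the log2 CPM scale in S-AlgLung replicate 3, the library with the highest MALAT1 and NEAT1 share, while PDK4 was at -0.06 and SESN3 at -0.20 there. Whether the nuclear RNA share, itself uncertain, has a part in these levels was not tested. Within AlgLung, 7 of the 10 (ARRDC4, PIK3IP1, IRS2, SESN3, PDK4, FOXO1 and FOXO3) were highest in replicate 1 and lowest in replicate 2, while DEPP1 was highest in replicate 2, and TXNIP and FOXO4 in replicate 3.

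Set per kilobase of exon, TXNIP had the highest mean level of the 10 in S-AlgLung (49.1 ± 12.2 CPM per kb), followed by DEPP1 (31.5 ± 7.90) and IRS2 (27.2 ± 4.15). The library ranges of TXNIP and DEPP1 overlapped, as did those of DEPP1 and IRS2. PDK4 came next at 9.02 ± 0.412 CPM per kb, apart from its neighbours, and FOXO4 (4.24), ARRDC4 (3.83), FOXO3 (2.51), FOXO1 (1.94), PIK3IP1 (1.81) and SESN3 (1.08) followed, where FOXO4 and ARRDC4, and FOXO1 and PIK3IP1, overlapped. In AlgLung the order began with IRS2 (24.7 ± 4.93 CPM per kb), PDK4 (18.5 ± 2.98) and TXNIP (16.3 ± 1.59), and PDK4 and TXNIP overlapped. DEPP1 was at 3.24 ± 0.472 CPM per kb there and overlapped FOXO3 (2.71), which overlapped FOXO4 (2.7). ARRDC4 (1.79), PIK3IP1 (1.54), FOXO1 (1.47) and SESN3 (1.41) formed an overlapping lowest group in AlgLung.

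Within gene families, no tested relative outside the 10 genes passed the threshold in the main fit. TXNIP made up 54.5 ± 7.95% of the summed level per kilobase of 5 alpha-arrestins in S-AlgLung and 31.8 ± 3.17% in AlgLung (SD, n = 3 each). The relatives ARRDC1 (log2 fold change 0.13, adjusted p = 0.890), ARRDC2 (0.03, adjusted p = 0.978) and ARRDC3 (0.27, adjusted p = 0.657) were not called by edgeR, and ARRDC5 had 0 reads. PDK4 made up 39.4 ± 6.87% of the 4 pyruvate dehydrogenase kinases in S-AlgLung and 59.0 ± 6.89% in AlgLung, while PDK1 (0.08), PDK2 (0.21) and PDK3 (-0.07) were not called on the same scale, with edgeR adjusted p of 0.940, 0.808 and 0.948. PDK2 was the most abundant of these kinases in S-AlgLung by its mean (12.6 ± 4.62 CPM per kb), and PDK4 was the most abundant in AlgLung. In S-AlgLung replicate 3, however, PDK4 (8.66 CPM per kb) was above PDK2 (7.37). Genes on the other strand had 0.51 times the counts of PDK2 (SAMD14) and 0.63 times those of PDK1 (PDK1-AS1). Reads could be shared there, so these levels and shares are uncertain.

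FOXO3 made up 24.6 ± 1.47% of the summed level per kilobase of the 4 FOXO factors in S-AlgLung and 35.5 ± 3.0% in AlgLung. The level of FOXO3 itself differed little, at 2.51 ± 0.174 CPM per kb in S-AlgLung and 2.71 ± 0.421 in AlgLung, and its libraries overlapped. FOXO4 made up 41.6 ± 4.16% in S-AlgLung and 35.7 ± 5.02% in AlgLung, with overlapping ranges. FOXO6, the fourth factor, had 3.78 ± 1.22 CPM in S-AlgLung and 1.80 ± 0.764 CPM in AlgLung (log2 fold change 1.06, SE 0.34, edgeR adjusted p = 0.0680). IRS2 made up 76.6 ± 1.71% of the IRS1 and IRS2 pair in S-AlgLung and 75.6 ± 1.53% in AlgLung. Among sestrins, SESN1 had 1.76 ± 0.358 CPM in S-AlgLung and 3.41 ± 0.207 CPM in AlgLung (log2 fold change -0.95, edgeR adjusted p = 0.0680), and SESN2 was at 0.27 (adjusted p = 0.718).

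**Figure D3:**
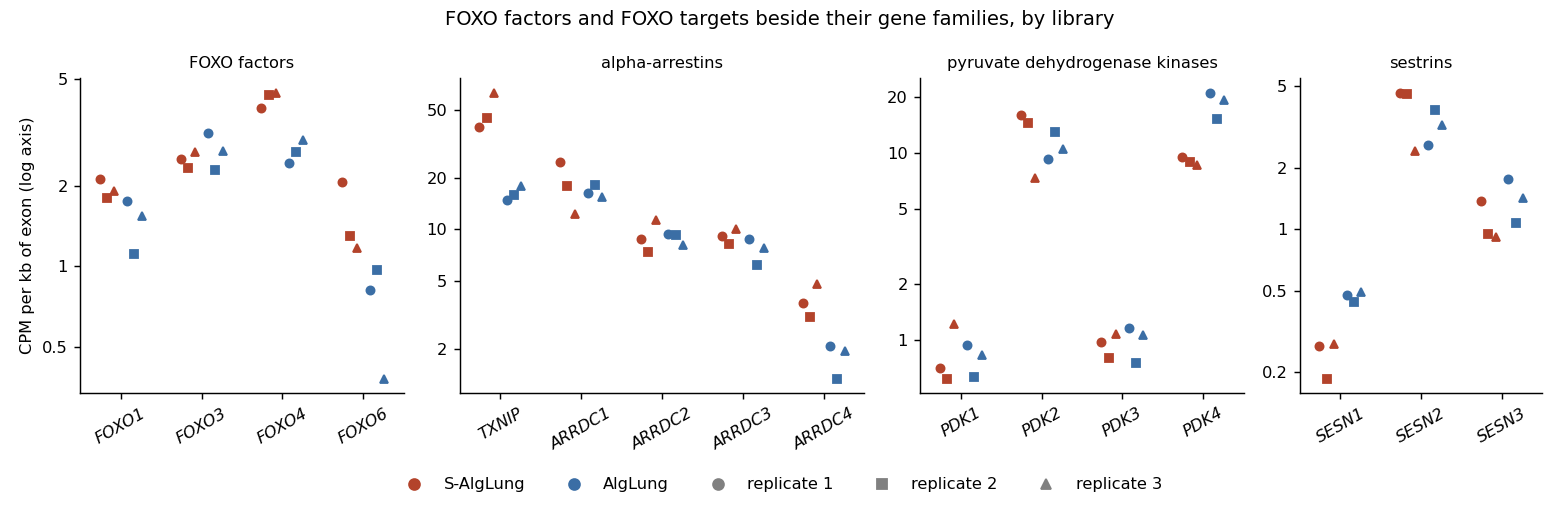
CPM per kilobase of exon (log axes) of FOXO factors, alpha-arrestins, pyruvate dehydrogenase kinases and sestrins in each library, with S-AlgLung (red) left of AlgLung (blue) and a marker shape per replicate. TXNIP and ARRDC4 stand higher in S-AlgLung and PDK4 lower, while ARRDC1, ARRDC2, ARRDC3, PDK1, PDK2 and PDK3 overlap between hydrogels.

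A wider list of 40 textbook FOXO targets was also chosen with earlier results of these data known. Its counts are therefore given as a description and not as separate support. It was read in the same way, and 37 genes were tested. Of these, edgeR called 8 higher and 0 lower in S-AlgLung, where 3.15% of all tested genes were called higher and 1.99% lower, with 14 at an unadjusted p under 0.05 and, by DESeq2, 8 higher and 1 lower. Without AlgLung replicate 1 or without replicate 2, 5 were called higher, and without S-AlgLung replicate 3, 2 were called lower, SESN1 (adjusted p = 0.0139) and CAT (adjusted p = 0.0268). The median log2 fold change was 0.29 over the list and 0.03 over all tested genes. Every S-AlgLung library was above every AlgLung library for 14 genes and below for 4, against 10.4% and 8.05% of all tested genes. For 10 list genes, an overlapping gene held 25% or more of their own count, so reads could be shared. In bulk RNA, a change in the number of cells that express a gene and a change in the RNA per cell cannot be told apart.

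The 5 called genes with the smallest p were 2 receptors of low level, a growth factor receptor, a gluconeogenic enzyme and a transcription factor. S1PR1, a sphingosine receptor, rose to 1.22, 1.39 and 1.53 CPM in S-AlgLung, against 0.192, 0.135 and 0.0828 CPM in AlgLung (log2 fold change 3.28, SE 0.50, edgeR adjusted p = 6.4e-05). CXCR4, a chemokine receptor, rose to 1.45, 1.61 and 1.03 CPM in S-AlgLung, against 0.0767, 0.135 and 0.290 CPM in AlgLung (2.99, SE 0.51, adjusted p = 0.000252). Both rest on few reads, 113 for S1PR1 and 111 for CXCR4 over all libraries, and both were called in each leave-one-out fit. ERBB3, a receptor induced when PI3K is inhibited, rose to 64.0 ± 5.2 CPM in S-AlgLung, against 29.5 ± 3.61 CPM in AlgLung (1.12, SE 0.22, adjusted p = 0.00116), but an unnamed gene on its strand that shares 31 exon bases had 1.75 times its counts. PCK1, the gluconeogenic enzyme, had 0.997, 1.01 and 4.05 CPM in S-AlgLung, against 0.307, 0.405 and 0.290 CPM in AlgLung (2.61, SE 0.51, adjusted p = 0.00142). The log2 fold change of PCK1 was 1.55 without S-AlgLung replicate 3 (adjusted p = 0.0324).

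KLF2, a Krüppel-like factor, rose to 114.7 ± 27.0 CPM in S-AlgLung, against 52.4 ± 6.24 CPM in AlgLung (log2 fold change 1.13, SE 0.24, edgeR adjusted p = 0.00257). It missed the threshold when AlgLung replicate 1 (adjusted p = 0.0519) or replicate 3 (adjusted p = 0.0563) was left out, and its log2 fold change was 0.89 without S-AlgLung replicate 3. The other called genes, named after their values were seen, were the growth arrest gene GADD45A (1.22, adjusted p = 0.00296), the Krüppel-like factor KLF6 (1.13, adjusted p = 0.0133) and the death ligand TNFSF10 (0.84, adjusted p = 0.0277). GADD45A was at 0.76 without S-AlgLung replicate 3 and lost its call without AlgLung replicate 2 (adjusted p = 0.0721), and KLF6 without S-AlgLung replicate 3 (0.50, adjusted p = 0.113) and without AlgLung replicates 1 or 2. TNFSF10 kept its call in just 1 of the leave-one-out fits, the one without S-AlgLung replicate 3. With scaling by total counts, KLF6 (adjusted p = 0.0574) and TNFSF10 (adjusted p = 0.20) also missed the threshold. CDKN1B, CCNG2 and RBL2, linked to cell cycle arrest as GADD45A is, were not called. The antioxidant genes SOD2, CAT and PRDX3 were not called either, and CAT was at -0.56 (edgeR adjusted p = 0.153).

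**Figure D4:**
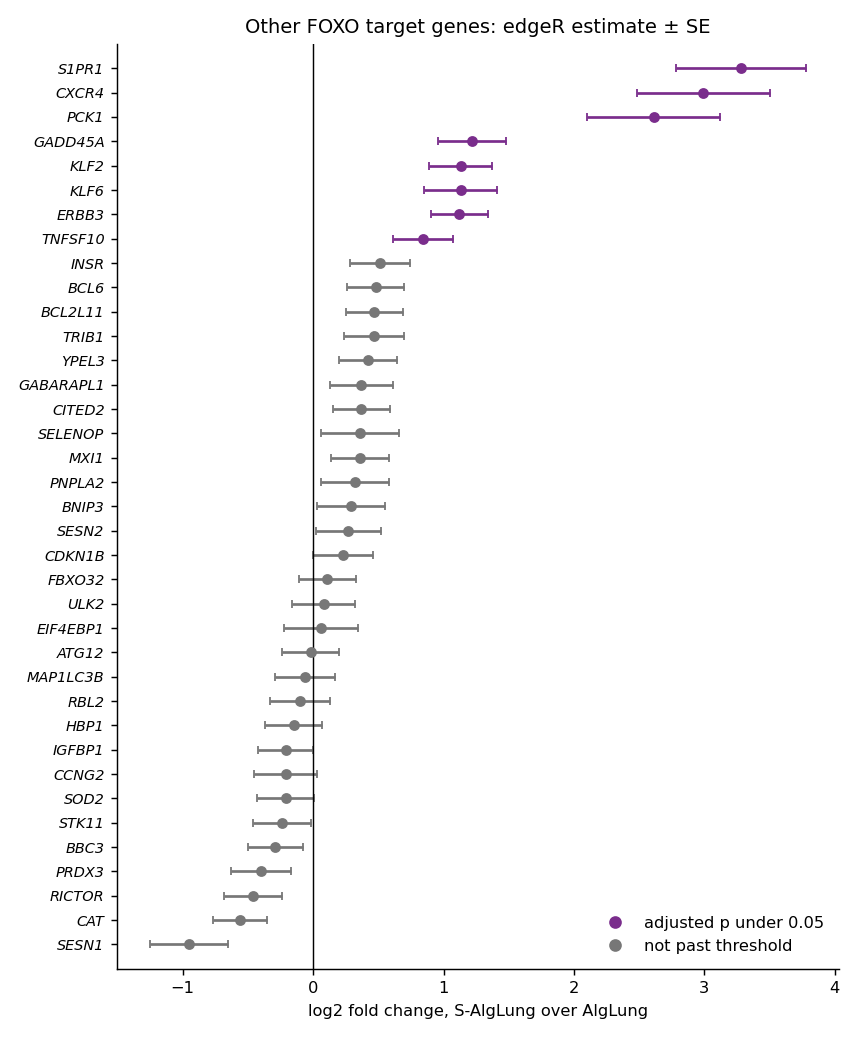
Fitted log2 fold change (S-AlgLung over AlgLung) of the 37 tested genes of the wider FOXO target list, with bars of 1 SE. The 8 called genes (purple) are all above 0, led by S1PR1 at 3.28, and SESN1 is lowest at -0.95 without passing the threshold.

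Of 3 genes reported as repressed by FOXO factors, FOXM1 fell, CCND1 did not pass and CCND2 had 0 reads. FOXM1, a forkhead factor that drives mitotic genes, had 8.84 ± 1.5 CPM in S-AlgLung and 29.2 ± 3.42 CPM in AlgLung (log2 fold change -1.73, SE 0.22, edgeR adjusted p = 8e-06). ITFG2, which overlaps it on the other strand, had 0.908 times its counts. CCND1, cyclin D1, was at -0.33 (adjusted p = 0.584). Proliferation markers fell alongside: edgeR called 5 of 6 lower, with a median log2 fold change of -1.21, and MKI67 had 8.08 ± 3.72 CPM in S-AlgLung and 29.3 ± 7.46 CPM in AlgLung. The part of cell cycle state in the levels of FOXO targets was not tested.

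The PI3K-AKT list, which holds kinases upstream of FOXO and also genes of the mTOR branch, had no called gene. Of 32 listed PI3K-AKT genes 31 were tested, and edgeR called 0, with 4 at an unadjusted p under 0.05 and 0 called by DESeq2. Of all tested genes 3.15% were called higher and 1.99% lower, so few calls would fall in a list of this size. The 0 is near that share, and little is read from it. For 11 listed genes, an overlapping gene held 25% or more of their own count. The smallest p belonged to INPP5D, a lipid phosphatase (log2 fold change -1.06, SE 0.38, adjusted p = 0.130), and the insulin receptor INSR (0.51, SE 0.23, adjusted p = 0.283). AKT1 (-0.03, adjusted p = 0.981) and AKT2 (0.06, adjusted p = 0.966) were near 0. Phosphorylation by these kinases was not measured.

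Direct regulators of FOXO proteins (24 listed, 23 tested) had 0 genes called by edgeR, 3 at an unadjusted p under 0.05 and 0 called by DESeq2. For this list and the arrestin list below, 0 is again near the share of all tested genes called. The smallest p were those of FOXO6, given above, and SKP2, a ubiquitin ligase subunit that targets FOXO1 (log2 fold change -0.77, SE 0.26, adjusted p = 0.102). Both were called without S-AlgLung replicate 3, FOXO6 at 1.19 (adjusted p = 0.00252) and SKP2 at -1.14 (adjusted p = 0.000344), as was MDM2, and FOXO6 also without S-AlgLung replicate 2 (adjusted p = 0.0314) and with no low-count filter (adjusted p = 0.0195). In the arrestin and thioredoxin list (15 listed, 13 tested) edgeR called 0, with 0 at an unadjusted p under 0.05 and 0 by DESeq2. Thioredoxin itself, TXN, the binding partner of TXNIP, had 198.5 ± 64.1 CPM in S-AlgLung and 217.4 ± 33.2 CPM in AlgLung (-0.13, SE 0.26, adjusted p = 0.900). Thioredoxin reductase TXNRD1 was at -0.38 (adjusted p = 0.559) and the ubiquitin ligase NEDD4 at -0.31 (adjusted p = 0.608).

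The MondoA and MLX network is the other known arm of TXNIP and ARRDC4 control. Of its 16 genes, edgeR called 0, with 1 at an unadjusted p under 0.05 and 0 called by DESeq2. This 0 is also near the share of all tested genes called. MondoA itself (MLXIP) had 143.3 ± 24.7 CPM in S-AlgLung and 135.6 ± 2.49 CPM in AlgLung (log2 fold change 0.08, SE 0.24, adjusted p = 0.939), and MLX was at 0.20 (adjusted p = 0.775). The relative MLXIPL was at 0.61 (adjusted p = 0.246) and MYC at 0.44 (adjusted p = 0.364).

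In the list of genes that work beside PDK4, edgeR called 1 of 18 higher, which is not named here, and 0 lower. ANGPTL4 of that list, a fasting-induced secreted factor often regulated together with PDK4, was at a log2 fold change of 0.68 (edgeR adjusted p = 0.122). It was called without S-AlgLung replicate 3 (adjusted p = 0.0209). In the sestrin list, edgeR called 1 of 18 genes. Of all tested genes 3.15% were called higher and 1.99% lower. For this list and the PDK4 list, 1 of 18 is near that share, and little is read from it. The called sestrin list gene was RRAGD, a Rag GTPase of the mTORC1 pathway. It rose to 8.66 ± 1.40 CPM in S-AlgLung, against 4.41 ± 1.27 CPM in AlgLung (0.97, SE 0.26, edgeR adjusted p = 0.0210). RRAGD lost its call without AlgLung replicate 1 (adjusted p = 0.0981) or replicate 2 (adjusted p = 0.148), and with scaling by total counts (adjusted p = 0.149). By DESeq2, ANGPTL4 and SESN1 were called as well.

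The genes whose profile over the 6 libraries was most like that of DEPP1 or TXNIP were found by root mean square distance of log2 CPM centred on its mean, among 11600 genes. Nearest to TXNIP were BMF, a BH3-only death gene (distance 0.05), FAAH2, a fatty acid amide hydrolase (0.12), CEMIP, a hyaluronan-degrading protein (0.13), and OR2I1P, an olfactory receptor locus (0.16). BMF had 19.95, 21.9 and 29.3 CPM in S-AlgLung and 6.63, 7.78 and 8.65 CPM in AlgLung, which is the library order of TXNIP in both groups. Genes on the other strand had 18.2% of the counts of BMF, 140% of those of CEMIP (MESD) and 123% of those of OR2I1P (GABBR1), so the values of the last pair are uncertain. Nearest to DEPP1 were PTGDS (0.25), REG4 (0.42), IGFBP5 (0.45) and DUOX2 (0.46), and an overlapping gene on the same strand had 99.6% of the counts of PTGDS. Of the 10 genes, the nearest to TXNIP were ARRDC4 (0.35), FOXO4 (0.49), FOXO1 (0.66), PIK3IP1 (0.69) and IRS2 (0.78), all nearer than DEPP1 (0.83). The distance is not scaled, so it depends on the size of the difference between hydrogels as well as on the library order. DEPP1 and TXNIP differ in that size (log2 fold changes 3.28 and 1.59), so this ranking does not show which genes share the library pattern of TXNIP.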

How the data were processed

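Messenger levels came from RNA sequencing of A549 cells, with 6 libraries, 3 per hydrogel. Per the labels' protocols, RNA was extracted with TRIzol and a column kit, and a service provider made and sequenced the libraries. Per the submitters' processing notes, the authors used STAR 2.7.3a, featureCounts and GRCh38; no annotation or strand setting is given in the sources used. The deposited values are raw counts of reads per gene. The 2 columns of AlgLung replicate 1 differed in 0 genes and were counted once. Symbols were matched for 42300 of 62703 IDs.

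Genes were kept with filterByExpr (minimum count 10), scaled by TMM and fitted in edgeR 4.0.16 (R 4.3.3; quasi-likelihood F tests) on all 6 libraries, without a block, with Benjamini-Hochberg adjustment over all 18544 tested genes and a threshold of 0.05. Log2 fold changes are those of S-AlgLung over AlgLung, with SE taken as the log2 fold change over the square root of F. The biological coefficient of variation was 0.215. Distances between profiles used a pseudocount of 0.5 CPM and a mean log2 CPM of at least 2. Alternatives were DESeq2 size factors, total counts, DESeq2 1.42.0, other filters, a replicate block, leaving out each library and an adjusted p under 0.01. The edgeR steps were tested on simulated data.

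The 10 genes and all lists were chosen with earlier results of these data known. Named from each list were called genes, up to 5 by p, or, with fewer than 2 called, up to 2 uncalled. Same-numbered libraries deviated together with correlations of 0.0791, 0.358 and 0.0908 across genes, and differently numbered ones with -0.396 to 0.230. These values do not settle whether the numbers pair the samples, and the labels do not say. The main fit therefore has no block, and a fit with a block is among the alternatives. Proteins were not analysed here, and some listed genes are not reported here.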

Additional observations from a re-analysis of the deposited data

How the results depend on the processing

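DEPP1, TXNIP and PDK4 kept their direction and side of the threshold in all 12 alternative fits. Their log2 fold changes were 3.03 to 3.40, 1.34 to 1.72 and -1.16 to -0.98, in that order. These fits reuse the libraries on which the genes were chosen, so this describes the settings and is not support. No result of any gene named among the 10 changed sign. The number of genes called higher was 584, and it was 333 with total counts, 323 at an adjusted p under 0.01, and 289 to 891 with 1 library left out, the highest without S-AlgLung replicate 3. Lower calls numbered 369, and they were 217 at an adjusted p under 0.01 and 244 to 662 with 1 library left out. The highest number came again without S-AlgLung replicate 3 and the lowest without AlgLung replicate 2. A block for the replicate number raised the calls to 800 higher and 500 lower. In the wider FOXO target list, 5 to 7 genes were called higher with 1 library left out, the fewest without AlgLung replicate 1 or 2. For that list 0 to 2 were called lower, with 2 without S-AlgLung replicate 3 (SESN1 and CAT). DESeq2 and no low-count filter each called 1 lower. With the replicate number as a block, 1 gene of that list was called lower, FOXO6 (edgeR adjusted p = 0.01003) and SKP2 (0.0162) were called, and 4 of the 10 genes were counted as called higher, FOXO4 (log2 fold change 0.65) being the addition, which is a description as above. The cause of these differences was not tested. Total-count scaling moved the median log2 fold change of all genes by -0.10. Genes under about 1 CPM, such as S1PR1 and CXCR4 in AlgLung, are the least precise.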
